A study of Mus musculus with 49 samples.

Results

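Epididymal white adipose tissue (eWAT), a visceral fat depot of male mice, was compared by RNA-seq between 2 inbred strains fed standard chow. The comparison used 10 of the 49 samples of the series, chosen by their labels, 5 libraries of C57BL/6 mice and 5 of 129S1/SvImJ mice, all from eWAT and all on chow, with no drug. The other libraries set beside them below came from mice of the same strains on the low fat control diet of the drug experiment (4 per strain) or kept on low fat diet for 12 weeks (5 of C57BL/6, 4 of 129S1/SvImJ). The labels give no age for the chow mice, do not name the C57BL/6 substrain and do not say whether replicates were different mice. The tests therefore rest on the variation among these libraries, which may be technical. The 5 chow libraries of F1 mice were not analysed here.

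White fat stores triglyceride in adipocytes, which hold most of the volume of the depot but share it with progenitors, vessel endothelium, macrophages, lymphocytes and a mesothelial covering. The nuclear receptor PPARG drives the adipocyte program, which includes the lipid droplet protein genes Plin1 and Cidec, the fatty acid carrier Fabp4 and the hormone adiponectin. Inbred strains differ in sequence at many genes, including some with no transcript in 1 strain, and in how much of each cell type a depot holds. In RNA from whole tissue, fewer cells of a type and less RNA per cell cannot be told apart.

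The values were normalized by the authors on a common scale. Every library had a highest value of 145538 and a floor of 1, and the totals lay between 7518968 and 7526303. They are not raw counts, the depth behind them is unknown, and among the most abundant genes they move in steps that libraries share. Between 17.5% and 24.4% of the 28644 transcripts lay at the floor, with means of 20.5% ± 2.61 in C57BL/6 and 20.9% ± 2.89 in 129S1/SvImJ (SD, n = 5 each, two-sided exact permutation test, p = 0.81). Levels are given in these normalized units, in order from replicate 1 to 5, and each log2 fold change is 129S1/SvImJ minus C57BL/6 on the log2(value + 1) scale with its standard error, which understates differences of genes close to the floor.

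Adipocyte genes were abundant in all 10 libraries, as the tissue label says, but 4 libraries also held transcripts of other tissues. 129S1/SvImJ replicate 2 had the highest value of the 10 libraries for each of the 27 genes of an epididymis list. Gpx5, a secreted glutathione peroxidase of the epididymis, was 145538 in it and 17 to 51 in the other 9. The same library had the lowest value for each of 25 adipocyte genes: Adipoq, which encodes adiponectin, was 2402 in it and 11641 to 20038 in the others. In 129S1/SvImJ replicate 1, the epididymal gene Crisp1 was 33942, close to the 39892 of replicate 2, while it was 6 to 29 in the other 8 libraries. This replicate 1 also held muscle transcripts, with Ckm, the muscle creatine kinase, at 591 against 1 to 5 elsewhere.

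C57BL/6 replicates 2 and 5 stood apart too. Foxj1, a transcription factor of motile cilia, was 601 and 632 in them, 22 and 122 in 129S1/SvImJ replicates 1 and 2, and 1 to 4 in the remaining 6. Lrp2, the endocytic receptor megalin, was 6740 and 7468 in these C57BL/6 libraries and 53 to 1247 in the rest. Epcam, a marker of epithelial cells, was 425 to 1189 in all 4 libraries named here and 1 to 6 in the remaining 6. The 2 C57BL/6 libraries correlated with each other (r = 0.99 over log2 values) more than with the other 3 of their strain (0.947 to 0.954). This r was also above the 0.981 to 0.987 of pairs of one strain among the remaining 6. The median absolute log2 ratio between the 2, 0.168, lay inside the 0.138 to 0.197 of those pairs. These values cannot show whether the 2 are separate samples, and they were kept as 2. Counts are therefore given with all 10 libraries, without 129S1/SvImJ replicate 2, and for the 6 libraries low in epithelial genes (C57BL/6 replicates 1, 3 and 4 and 129S1/SvImJ replicates 3, 4 and 5), a set chosen after these values were seen.

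**Figure D1:**
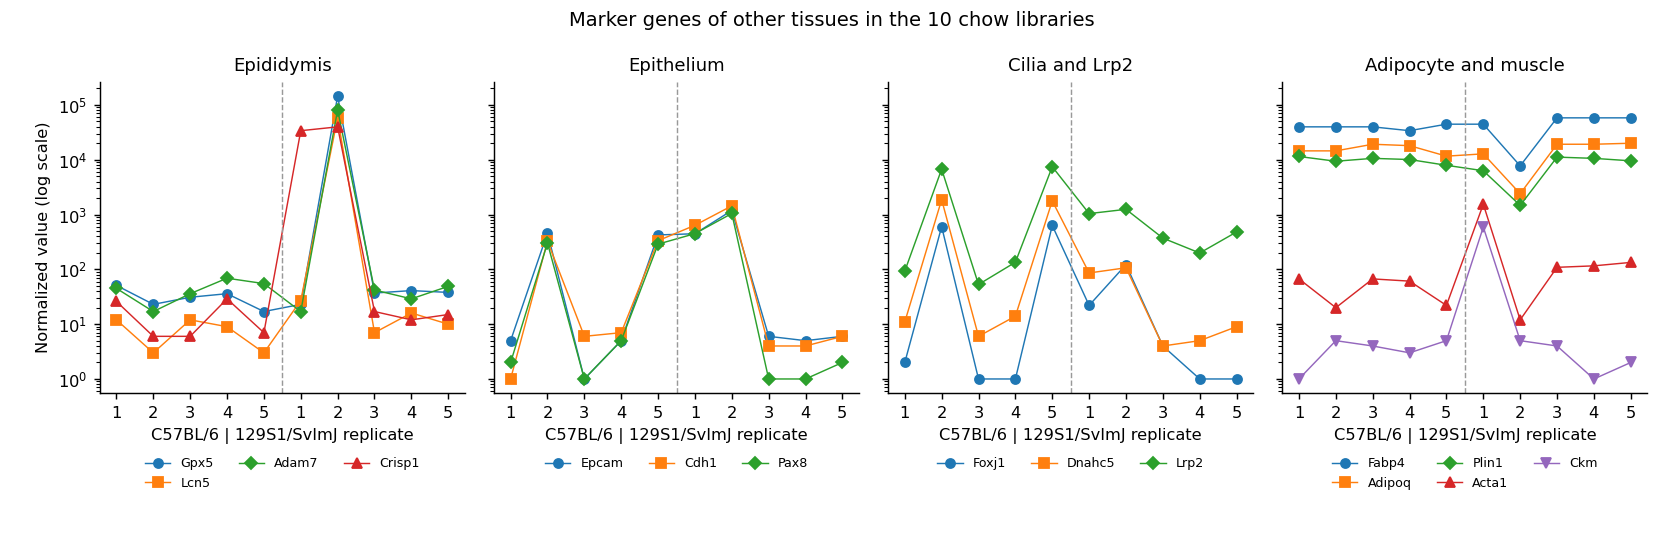
Normalized values (log scale) of marker genes in each of the 10 chow libraries, C57BL/6 replicates 1 to 5 left of the dashed line and 129S1/SvImJ replicates 1 to 5 right of it. Each line is 1 gene. Gpx5 stands at 145538 in 129S1/SvImJ replicate 2 alone, and Foxj1 at 601 and 632 in C57BL/6 replicates 2 and 5.

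limma called 1142 of 22869 genes (4.99%) at a Benjamini-Hochberg adjusted p under 0.05, 545 higher in 129S1/SvImJ (2.38%) and 597 lower (2.61%). Of these, 318 differed by at least 1 log2 unit, 123 higher and 195 lower. The strains did not overlap for 828 genes that were higher in 129S1/SvImJ (3.62%) and 915 that were lower (4.0%), together 7.62%. Without 129S1/SvImJ replicate 2 the call covered 2562 genes (11.2%), 1416 higher (6.19%) and 1146 lower (5.01%), and 1111 of the 1142 genes were called in the same direction both ways. The 6 libraries gave 2470 calls (10.8%), 1352 higher (5.91%) and 1118 lower (4.89%). 714 genes were called in the same direction in all 3 fits. The count fell by more than 1.5 times when C57BL/6 replicate 1 (652), 2 (664) or 3 (730) or 129S1/SvImJ replicate 3 (672) was left out. The median log2 fold change of all genes was 0.00 in each fit. An unadjusted p below 0.05 was reached by 17.2% of genes with all libraries (3925 genes).

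The largest differences were genes with little signal in C57BL/6 and clear signal in 129S1/SvImJ. Hal encodes histidine ammonia lyase, the first enzyme of histidine breakdown. Its values were 5, 5, 1, 9 and 2 in C57BL/6 and 347, 212, 456, 320 and 465 in 129S1/SvImJ, and the log2 fold change was 6.23 ± 0.45 (limma adjusted p = 0.000502). No 129S1/SvImJ library came near a C57BL/6 one, and the difference was 6.37 ± 0.68 in the 6 libraries.

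Slc7a11 encodes the cystine and glutamate exchanger that feeds glutathione synthesis. Its values were 16, 8, 10, 10 and 16 in C57BL/6 and 120, 1498, 187, 171 and 122 in 129S1/SvImJ (4.23 ± 0.68, limma adjusted p = 0.0120). Replicate 2 alone exceeded 1000, and without it the difference was 3.56 ± 0.25 (adjusted p = 0.000567). St6galnac1, a sialyltransferase, was the only gene at 3 or less in every C57BL/6 library (1 to 2) and at 20 or more in every 129S1/SvImJ library (20 to 58), and no gene showed the reverse. BC018473, a transcript of no named function, was 1 to 5 in C57BL/6 and 1064, 2094, 79, 95 and 89 in 129S1/SvImJ. Its 2 highest values were those of the libraries with epididymal transcripts, and it was still 4.94 ± 0.51 higher in the 6 libraries (limma adjusted p = 0.0167).

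Several large differences concern genes with close copies, whose values are uncertain because reads can be split between copies. Rprl3, a small RNA gene of the RNase P family, was 1 to 4 in C57BL/6 and 536 to 826 in 129S1/SvImJ. Mettl7a2 and its neighbour AB099516 had nearly the same values in each library (5 and 5 in C57BL/6 replicate 1, 122 and 122 in 129S1/SvImJ replicate 2), so they may not be separate measurements. Serpina1b, of the alpha-1-antitrypsin family, and Gm5506 were 20 to 295 and 63 to 145 in 129S1/SvImJ and at most 8 in C57BL/6. On the lower side, the ribosomal protein genes Rpl29 (125 to 156 in C57BL/6, 2 to 8 in 129S1/SvImJ) and Rps3a (292 to 382 against 5 to 26), the complex I gene Ndufs5 (49 to 102 against 2 to 9) and Nlrp1c-ps, an inflammasome family pseudogene (30 to 86 against 1 to 5), carry the same limit.

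Pttg1, which encodes securin, the inhibitor of separase in mitosis, was lower in 129S1/SvImJ. It was 143, 141, 141, 161 and 122 in C57BL/6 and 12, 18, 7, 8 and 6 in 129S1/SvImJ (-3.77 ± 0.26, limma adjusted p = 0.000446). The strains were far apart in every library. Of 26 cell cycle genes, 3 were called lower and none higher with all libraries (all genes 2.61% and 2.38%). In the 6 libraries 3 were called each way (all genes 4.89% lower and 5.91% higher). The others called lower with all libraries were Bub1b, a spindle checkpoint kinase (31 to 70 against 16 to 24), and Mcm6, a subunit of the replicative helicase (90 to 154 against 26 to 77). The median log2 fold change of all 26 cell cycle genes was 0.06 with all libraries. Mcm3, of the same helicase as Mcm6, was called higher without 129S1/SvImJ replicate 2 (0.62 ± 0.14). Unc5a, a netrin receptor, was 66 to 182 in C57BL/6 and 4, 36, 4, 8 and 10 in 129S1/SvImJ. Cyp2f2, a cytochrome P450, was 74 to 270 in C57BL/6 and 4 to 26 in 129S1/SvImJ (-3.39 ± 0.56, limma adjusted p = 0.0133). 2610507I01Rik, a transcript of no named function, was 113 to 153 against 7 to 16.

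The 6 most abundant genes called higher in 129S1/SvImJ both with all libraries and without replicate 2 differed by less than 1 log2 unit. Anxa2, a membrane-binding annexin, was 3253, 3670, 2339, 3209 and 3855 in C57BL/6 and 5708, 3932, 5984, 6576 and 7090 in 129S1/SvImJ (0.84 ± 0.19, limma adjusted p = 0.0420). Its groups stood next to each other, with replicate 2 the lowest of 129S1/SvImJ. Atp9a, a phospholipid flippase, was 1161 to 1412 against 1988 to 2601 (0.92 ± 0.09). Laptm4a, a lysosomal membrane protein (0.70 ± 0.09), Akap12, a kinase scaffold (0.62 ± 0.13), Zfp106, a zinc finger protein (0.35 ± 0.05), and Cox4i1, a cytochrome oxidase subunit (0.31 ± 0.07), were also called higher, with a largest limma adjusted p of 0.0357. In the 6 libraries Cox4i1 was not called (adjusted p = 0.105). Lower in 129S1/SvImJ were Neat1, the long noncoding RNA of paraspeckles (6670 to 9978 against 3100 to 4114, -1.25 ± 0.12), and Hspg2, the basement membrane proteoglycan perlecan (6454 to 8423 against 1964 to 4471, -1.01 ± 0.23). Nsd1, a histone methyltransferase (-0.53 ± 0.06), and the nuclear speckle genes Son (-0.49 ± 0.10) and Srrm2 (-1.11 ± 0.25) were called lower too. Srrm2 was 3873 in 129S1/SvImJ replicate 2, above the lowest C57BL/6 value of 3391, and 1556 to 2115 in the other 129S1/SvImJ libraries. Son had a limma adjusted p of 0.0347 with all libraries and 0.0558 in the 6.

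**Figure D2:**
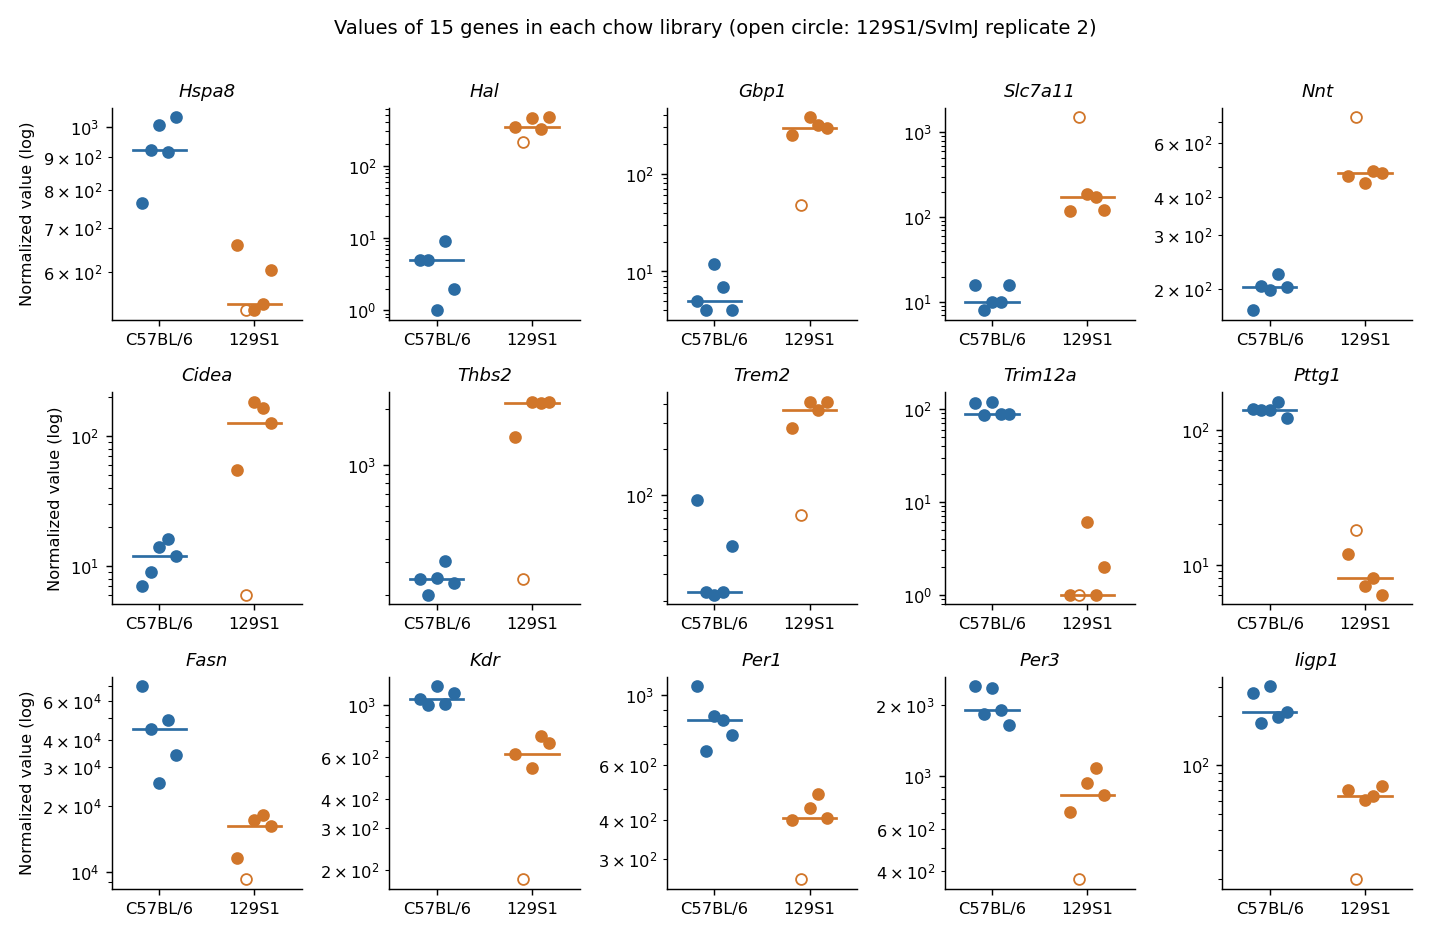
Normalized values (log scales that differ between panels) of 15 genes in each of the 5 C57BL/6 (blue) and 5 129S1/SvImJ (orange) chow libraries. Short lines are medians and the open circle is 129S1/SvImJ replicate 2, which lies inside the C57BL/6 range for Thbs2 (244) and below it for Cidea (6).

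Genes of the mitochondrial respiratory chain were called higher in 129S1/SvImJ more often than lower, and how often depended on replicate 2. The chain passes electrons from NADH and succinate to oxygen through complexes I to IV, and the ATP synthase uses the resulting proton gradient. Of 75 subunit genes, 5 were called higher and 2 lower with all libraries (all genes 2.38% and 2.61%), with a median log2 fold change of 0.19. Without replicate 2 the calls were 26 higher and 2 lower (all genes 6.19% and 5.01%, median 0.35), and in the 6 libraries 20 higher and 3 lower (all genes 5.91% and 4.89%, median 0.30). Replicate 2 had a summed level of these genes of 31817, against 40581 to 57347 in the other 9, and its part in the result beyond this count was not tested.

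Within the chain, the complex I subunit gene Ndufa11 was 138, 141, 127, 144 and 138 in C57BL/6 and 401, 304, 336, 316 and 299 in 129S1/SvImJ (1.25 ± 0.08, limma adjusted p = 0.000366). The lowest 129S1/SvImJ value was far above the highest of C57BL/6. Ndufa7, also of complex I, was 278 to 325 against 403 to 502 (0.64 ± 0.07, limma adjusted p = 0.00257). Cox7b, of cytochrome oxidase, was 322 to 354 in C57BL/6 and 474 to 554 in 129S1/SvImJ outside replicate 2, where it was 294. It was not called with all libraries (limma adjusted p = 0.213) and was called without that one (0.59 ± 0.05, adjusted p = 0.00101). Ndufa12 was lower in 129S1/SvImJ, at 50 to 102 against 12 to 43 (-1.86, limma adjusted p = 0.0215). Genes of the mitochondrial ribosome, which makes the chain's mitochondrially encoded subunits, gave calls of the same kind. Of 76, 4 were higher and none lower with all libraries (all genes 2.38% and 2.61%), 12 and none without replicate 2 (6.19% and 5.01%), and 21 and 1 in the 6 (5.91% and 4.89%). Mrps27 was 90 to 107 in C57BL/6 and 111 to 209 in 129S1/SvImJ (0.73 ± 0.17, limma adjusted p = 0.0475), and Mrpl54 was 77 to 103 against 135 to 183 (0.75 ± 0.11, limma adjusted p = 0.00969).

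Citrate cycle and fatty acid oxidation genes were not called with all 10 libraries. Without replicate 2, 2 of 18 citrate cycle genes were called higher (all genes 6.19%), Suclg1 of succinyl-CoA ligase (0.87 ± 0.12) and Idh2, the mitochondrial isocitrate dehydrogenase (0.68 ± 0.13), with a largest limma adjusted p of 0.0179. In the 6 libraries 6 of 18 were higher and none lower (all genes 5.91% and 4.89%). Of 23 fatty acid oxidation genes, 3 were called higher without replicate 2 (all genes 6.19%), namely Acaa2, the last enzyme of each cycle, Acadm, the medium-chain dehydrogenase, and Etfdh, which hands its electrons to the chain. In the 6 libraries 10 were higher and 1 lower (all genes 5.91% and 4.89%). Acadm was 1509, 1585 and 1598 in C57BL/6 replicates 1, 3 and 4 and 2474, 2539 and 2454 in 129S1/SvImJ replicates 3 to 5 (0.67 ± 0.03, limma adjusted p = 0.00446). C57BL/6 replicates 2 and 5, with 1184 and 1263, and 129S1/SvImJ replicates 1 and 2, with 1649 and 492, lay lower than the rest of their strain.

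Nnt encodes the mitochondrial transhydrogenase, which makes NADPH from NADH. In the C57BL/6J substrain the gene is known to carry a deletion. Nnt was 170, 204, 198, 224 and 202 in C57BL/6 and 466, 725, 444, 483 and 477 in 129S1/SvImJ (1.36 ± 0.14, limma adjusted p = 0.00221), so a transcript was still measured in C57BL/6. Replicate 2 was the highest, and without it the difference was 1.23 ± 0.07. Of 25 antioxidant genes, Nnt was the only one called with all libraries (all genes 2.38% higher and 2.61% lower). Without replicate 2, 3 were higher and none lower (all genes 6.19% and 5.01%). In the 6 libraries 5 were higher and none lower (all genes 5.91% and 4.89%). Gpx1, the cytosolic glutathione peroxidase (0.99 ± 0.23, limma adjusted p = 0.0334), and Sod2, the mitochondrial superoxide dismutase (0.24 ± 0.05, limma adjusted p = 0.0189), were called higher without replicate 2, and Sod2 was not called in the 6 (adjusted p = 0.06).

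Calls among adipocyte genes depended on the libraries in the fit. Of 25 genes of adipocyte identity and lipid storage, none was called with all libraries (all genes 2.38% higher and 2.61% lower, list median -0.49). Without replicate 2, 2 were higher and none lower (all genes 6.19% and 5.01%, list median 0.08). In the 6 libraries 4 were higher and 3 lower (all genes 5.91% and 4.89%, list median 0.13). Pparg was 1886, 1532, 2046, 1850 and 1294 in C57BL/6 and 1122, 183, 1897, 2229 and 2206 in 129S1/SvImJ. The strains overlapped for it with replicate 2 (-0.58 ± 0.67, limma adjusted p = 0.740) and without it (0.08 ± 0.24, adjusted p = 0.931). Adipoq (0.19 ± 0.19) and Cd36, the fatty acid translocase (-0.02 ± 0.09), were not called without replicate 2 either, with a lowest limma adjusted p of 0.636. Lep, the gene of the satiety hormone leptin, was 4471, 4114, 4919, 6538 and 4820 in C57BL/6 and 7142, 1195, 8423, 7821 and 7142 in 129S1/SvImJ. All 129S1/SvImJ values but that of replicate 2 were above C57BL/6, and Lep was called without it (0.63 ± 0.13, limma adjusted p = 0.0237) but not in the 6 libraries (adjusted p = 0.119).

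For Fabp4, 1 library decided the direction. Its values were 39892, 39892, 39892, 33942 and 44622 in C57BL/6 and 44622, 7741, 58238, 58238 and 58238 in 129S1/SvImJ. The difference was -0.10 ± 0.55 with all libraries (limma adjusted p = 1) and 0.46 ± 0.11 without replicate 2 (adjusted p = 0.0332), and the repeated values are the steps of the scale at high abundance. Cidea, a lipid droplet protein also used as a marker of thermogenic fat, was 7, 9, 14, 16 and 12 in C57BL/6 and 55, 6, 183, 164 and 126 in 129S1/SvImJ. Every 129S1/SvImJ value but that of replicate 2 exceeded C57BL/6, and the difference was 3.32 ± 0.40 without that library (limma adjusted p = 0.00322) and 2.5 ± 0.87 with it (adjusted p = 0.175). The thermogenic uncoupling protein gene Ucp1 was 1 to 3 in C57BL/6 and 1, 1, 28, 23 and 10 in 129S1/SvImJ. Only 129S1/SvImJ replicates 3 to 5 exceeded 3, and Ucp1 was called in the 6-library fit alone of these 3 fits (2.77 ± 0.49, limma adjusted p = 0.0420). Prdm16, a regulator of the thermogenic program, was 58 to 82 in C57BL/6 and 39 to 55 in 129S1/SvImJ outside replicate 2, where it was 167. It was called lower without that library (-0.55 ± 0.13, limma adjusted p = 0.0408) and not in the 6 (adjusted p = 0.181). Of 24 thermogenic genes, 1 was called higher and 1 lower without replicate 2 (all genes 6.19% and 5.01%). In the 6 libraries 3 were higher and none lower (all genes 5.91% and 4.89%).

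Fatty acid synthase, Fasn, which builds palmitate from malonyl-CoA, was the most abundant gene called lower. It was 70020, 44622, 25444, 49161 and 33942 in C57BL/6 and 11641, 9270, 17176, 18105 and 16248 in 129S1/SvImJ (-1.59 ± 0.30, limma adjusted p = 0.0217). The strains did not overlap, but C57BL/6 libraries spread from 25444 to 70020, and in the 6 libraries the difference was -1.37 ± 0.41 (adjusted p = 0.119). Of 21 fatty acid synthesis genes, Fasn was the only one called with all libraries (all genes 2.38% higher and 2.61% lower). Without replicate 2, 2 were higher and 1 lower (all genes 6.19% and 5.01%). In the 6 libraries none was higher and 3 were lower (all genes 5.91% and 4.89%). Lpl, the lipoprotein lipase that frees fatty acids for uptake, was 44622 to 53989 in C57BL/6 and 17176, 5283, 33942, 33942 and 33942 in 129S1/SvImJ. The groups did not overlap, with adjusted p = 0.259 for all libraries, 0.0695 without replicate 2 and 0.0428 in the 6 (limma, -0.49). Ebp was the only one of 24 sterol genes called with all libraries (0.45 ± 0.10 higher, all genes 2.38% higher and 2.61% lower).

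Circadian clock genes were lower in 129S1/SvImJ where they were called. In the clock, CLOCK and ARNTL activate the Per and Cry genes through E-box elements, and PER and CRY proteins then repress them. The time of day of sampling is not in the labels. The promoters of Per1 and Cry1 show this element. The windows below run from 250 bases before to 50 bases after the RefSeq start (GRCm38.p6), written on the gene's strand, with the E-box CACGTG, whose reverse complement is the same, in capitals. Per1 lies at chr11:69098699-69098998 on the plus strand and Cry1 at chr10:85185005-85185304 on the minus strand.
Per1: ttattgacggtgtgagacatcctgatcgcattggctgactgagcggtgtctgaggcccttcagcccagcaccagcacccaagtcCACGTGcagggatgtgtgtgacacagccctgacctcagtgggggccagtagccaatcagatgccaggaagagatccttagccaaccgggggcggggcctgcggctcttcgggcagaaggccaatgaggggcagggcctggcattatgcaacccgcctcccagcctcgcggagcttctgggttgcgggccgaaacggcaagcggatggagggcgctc
Cry1: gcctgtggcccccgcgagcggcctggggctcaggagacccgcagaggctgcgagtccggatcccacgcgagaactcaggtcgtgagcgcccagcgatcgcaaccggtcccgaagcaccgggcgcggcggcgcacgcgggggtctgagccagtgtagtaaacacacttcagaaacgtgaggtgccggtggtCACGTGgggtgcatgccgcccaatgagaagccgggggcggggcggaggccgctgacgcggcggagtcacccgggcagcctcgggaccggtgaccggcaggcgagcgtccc
Of the 19 clock genes 15 had a window, and 4 of these held the motif (Bhlhe41, Cry1, Per1 and Tef), while it occurred in 7.15% of all 32851 windows.

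Of 19 clock genes, 3 were called lower and none higher with all libraries (all genes 2.61% and 2.38%). Without replicate 2, 6 were lower and none higher (all genes 5.01% and 6.19%). The 6 libraries gave the same counts (all genes 4.89% and 5.91%). Per3 was 2387, 1828, 2357, 1897 and 1638 in C57BL/6 and 708, 370, 935, 1088 and 832 in 129S1/SvImJ (-1.43 ± 0.28, limma adjusted p = 0.0245). Per1 was 1069, 666, 862, 835 and 746 in C57BL/6 and 400, 258, 437, 484 and 404 in 129S1/SvImJ (-1.09 ± 0.19, limma adjusted p = 0.0152). Cry1 was 86, 67, 95, 81 and 68 against 53, 44, 49, 47 and 51 (-0.68 ± 0.10, limma adjusted p = 0.00969). All 3 separated the strains library by library. Per2 (-0.84) and Cry2 (-0.53) were among those called lower without replicate 2, with a largest limma adjusted p of 0.0436. Arntl itself was 20 to 44 in C57BL/6 and 21 to 57 in 129S1/SvImJ, Clock was 564 to 746 against 642 to 1109, and neither was called in any of the 3 fits. Nr1d1 and Dbp, targets of the clock, also overlapped between strains.

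Interferon-induced GTPases differed in both directions. These proteins, the Gbp and Irg families, act against intracellular pathogens and are induced mainly by interferon gamma, and many have close paralogs that can share reads. Of 18 genes, 1 was called higher (all genes 2.38%) and 4 lower (2.61%) with all libraries. Without replicate 2, 2 were higher and 5 lower (all genes 6.19% and 5.01%). The 6 libraries gave the same counts (all genes 5.91% and 4.89%). Gbp1 was 5, 4, 12, 7 and 4 in C57BL/6 and 246, 48, 375, 317 and 292 in 129S1/SvImJ (4.94 ± 0.58, limma adjusted p = 0.00321). Its paralog Gbp4 went the other way, at 340, 189, 348, 225 and 294 in C57BL/6 and 52, 19, 86, 106 and 86 in 129S1/SvImJ (-2.16 ± 0.46, limma adjusted p = 0.0324). Neither gene overlapped between the strains, and replicate 2 was the lowest 129S1/SvImJ library for both.

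Iigp1, an Irg family member, was 277, 182, 303, 197 and 212 in C57BL/6 and 70, 20, 61, 65 and 74 in 129S1/SvImJ (-2.10 ± 0.36, limma adjusted p = 0.0152). Irgm2, a regulatory member of the same family, was 213, 168, 233, 147 and 171 against 79, 30, 78, 78 and 64 (-1.55 ± 0.28, limma adjusted p = 0.0183). Gbp9 was called lower as well (-0.97, limma adjusted p = 0.0213), and the groups were apart for all 3. The Irgm2 promoter window (GRCm38.p6, chr11:58214727-58215026, plus strand) holds an element of the kind bound by interferon regulatory factors, in capitals, searched on both strands as GAAA, any 2 bases and a second GAAA.
Irgm2: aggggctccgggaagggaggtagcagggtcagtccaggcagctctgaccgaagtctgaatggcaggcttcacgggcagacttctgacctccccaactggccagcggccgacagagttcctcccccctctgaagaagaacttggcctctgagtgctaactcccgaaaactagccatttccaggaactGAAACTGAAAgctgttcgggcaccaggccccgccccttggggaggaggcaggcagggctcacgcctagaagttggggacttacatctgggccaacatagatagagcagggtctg
Each of the 9 GTPase genes with a window (Gbp2, Gbp3, Gbp5, Gbp7, Igtp, Irgm1, Irgm2, Tgtp1 and Tgtp2) held the motif, against 3.44% of all windows. Of these 9, only Irgm2 was called with all libraries, and the other called members (Gbp1, Gbp4, Iigp1 and Gbp9) had no window. The motif therefore cannot be compared between called members and the rest.

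None of 26 type I interferon response genes was called with all libraries (all genes 2.38% higher and 2.61% lower). Without replicate 2, Oas2, an RNA-sensing synthetase, was lower (47 to 71 against 6 to 32, -1.12 ± 0.16) and Xaf1, a proapoptotic protein, was higher (1.40 ± 0.22), with a largest limma adjusted p of 0.00818. In the 6 libraries 1 was higher and 4 were lower (all genes 5.91% and 4.89%). The Trim genes around Trim12a, antiviral ubiquitin ligases, differed gene by gene. Trim12a was 115, 87, 119, 88 and 88 in C57BL/6 and 1, 1, 6, 1 and 2 in 129S1/SvImJ (-5.16 ± 0.36, limma adjusted p = 0.000446). Trim30d (55 to 92 against 1 to 7) and Trim34a (65 to 131 against 25 to 49) were lower, while Trim12c (94 to 137 against 197 to 212) and Trim34b (1 to 9 against 16 to 26) were higher. These 5 of 10 measured genes were called with all libraries, of which Trim34b was not called in the 6 (limma adjusted p = 0.0899), and close copies make each value uncertain.

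Of 16 endothelial genes, which mark vessels, none was called with all libraries, and the log2 fold change was below 0 for all 16 in each of the 3 fits, with medians of -0.96, -0.56 and -0.61. Of all genes, 53.6%, 43.5% and 54.6% were below 0 in the same fits. Without replicate 2, in which all 16 were at their lowest, 4 were called lower (all genes 5.01%), and 5 in the 6 libraries (all genes 4.89%). Kdr, the VEGF receptor of vessels, was 1056, 996, 1194, 1003 and 1124 in C57BL/6 and 620, 182, 536, 733 and 687 in 129S1/SvImJ. Cdh5, the endothelial cadherin, was 918 to 1450 against 163 to 783. The groups did not overlap for either, and both were called without replicate 2 (Kdr -0.74 ± 0.10, Cdh5 -0.91 ± 0.21, largest limma adjusted p = 0.0328). In the 6 libraries Kdr was not called (adjusted p = 0.0534). The summed level of the 16 genes was 6155 to 9545 in C57BL/6 and 1479 to 6509 in 129S1/SvImJ, or 4455 to 6509 without replicate 2, so the strains overlapped. Among the 6 libraries it was 8222 to 9316 against 4455 to 6509.

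Of 12 mesothelial genes, 1 was called higher in 129S1/SvImJ with all libraries (Upk1b, a uroplakin), 8 without replicate 2 and 3 in the 6 libraries (Krt8, Krt18 and Efemp1), and none was lower. The shares of all genes called higher in these fits were 2.38%, 6.19% and 5.91%. Msln, which encodes mesothelin, was 86, 107, 55, 167 and 136 in C57BL/6 and 443, 24, 403, 249 and 601 in 129S1/SvImJ. Outside replicate 2 the groups were apart (1.96 ± 0.38, limma adjusted p = 0.0168), but in the 6 libraries the adjusted p was 0.0971. Lrrn4 (2.17 ± 0.31), Gpm6a (2.31 ± 0.46) and Efemp1, a matrix protein (1.15 ± 0.13), were also called higher without replicate 2, and of these Lrrn4 (limma adjusted p = 0.0650) and Gpm6a (0.0604) were not called in the 6. The keratins Krt8 and Krt18 of this list also mark the epithelium of the 4 libraries set apart, at 451 to 1947 there against 8 to 71 in the 6.

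None of 25 extracellular matrix genes was called with all libraries (all genes 2.38% higher and 2.61% lower). Without replicate 2, 4 were called higher and 1 lower (all genes 6.19% and 5.01%). In the 6 libraries 3 were higher and none lower (all genes 5.91% and 4.89%). Thbs2, thrombospondin 2, was 245, 201, 248, 305 and 232 in C57BL/6 and 1405, 244, 2177, 2141 and 2181 in 129S1/SvImJ. Replicate 2 lay among the C57BL/6 values, and the difference was 2.99 ± 0.17 without it (limma adjusted p = 0.000295). Thbs1 (2.49 ± 0.27) and the gelatinase Mmp2 (0.93 ± 0.11) were also higher without replicate 2, and Col15a1, a basement membrane collagen, was lower (-0.86 ± 0.20), with a largest limma adjusted p of 0.0366. Col15a1 was apart in all 10 libraries (3214 to 5623 against 509 to 2818) but was not called in the 6 (adjusted p = 0.150). Of 16 progenitor genes, 1 was called higher and none lower with all libraries (all genes 2.38% and 2.61%). Without replicate 2, 3 were higher and 1 lower (all genes 6.19% and 5.01%). In the 6 libraries 1 was higher and 1 lower (all genes 5.91% and 4.89%). Clec11a, a secreted growth factor, was the gene called with all libraries (1.23 ± 0.25), but it was not called in the 6 (limma adjusted p = 0.139). Pi16 was higher and Pdgfrb, a receptor of mural and progenitor cells, lower (-0.46 ± 0.09) without replicate 2.

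Of 25 macrophage genes, 1 was called higher and 1 lower with all libraries (all genes 2.38% and 2.61%, list median -0.04). Without replicate 2, 5 were higher and 2 lower (6.19% and 5.01%, median 0.24). In the 6 libraries 1 was higher and 2 were lower (all genes 5.91% and 4.89%). Trem2, the lipid-sensing receptor of lipid-associated macrophages, was 92, 23, 22, 23 and 46 in C57BL/6 and 274, 74, 410, 361 and 408 in 129S1/SvImJ (2.88 ± 0.59, limma adjusted p = 0.0295). Only C57BL/6 replicate 1 and 129S1/SvImJ replicate 2 met. Gpnmb, another gene of these macrophages, was 856, 129, 121, 111 and 301 in C57BL/6 and 115, 310, 113, 105 and 149 in 129S1/SvImJ, and was not called. General markers such as Csf1r (710 to 945 in C57BL/6, 839 to 947 in 129S1/SvImJ outside replicate 2) overlapped. Fcgr1, an IgG receptor, was called lower with all libraries (19 to 32 against 10 to 17) but not in the 6 (limma adjusted p = 0.0692). The lymphocyte list was close to the floor: 7 of its 23 genes reached 20 in any library, and none was called with all libraries. Of 32 antigen presentation genes, H2-Q6 was called lower with all libraries but not in the 6 (limma adjusted p = 0.212). B2m, the light chain of class I molecules, was higher without replicate 2 (0.75 ± 0.13).

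Of 27 chaperone genes, Hspa8, the constitutive HSP70, was the only one called with all libraries (all genes 2.38% higher and 2.61% lower). It was 764, 922, 1006, 914 and 1034 in C57BL/6 and 660, 523, 523, 534 and 603 in 129S1/SvImJ (-0.70 ± 0.10, limma adjusted p = 0.00683), with no overlap. Pdia4, a disulfide isomerase of the endoplasmic reticulum, stood at 4407 in replicate 2 and at 1269 to 1403 in the other 129S1/SvImJ libraries, all above the 875 to 1034 of C57BL/6. Without replicate 2, 6 chaperone genes were higher and 1 lower (all genes 6.19% and 5.01%). Pdia4 (0.49 ± 0.05) and Sdf2l1 (1.08 ± 0.17) were among the higher ones. In the 6 libraries 9 were higher and 1 lower (all genes 5.91% and 4.89%). Jund, an AP-1 transcription factor, was the only one of 22 immediate early genes called with all libraries (113 to 158 against 181 to 244), and it was not called in the 6 (limma adjusted p = 0.0628). Krt7, the only one of 16 epithelial genes called with all libraries, was 18 to 40 in C57BL/6 and 92, 201, 78, 51 and 111 in 129S1/SvImJ, with its highest value in replicate 2, and was not called in the 6 libraries (limma adjusted p = 0.133).

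**Figure D3:**
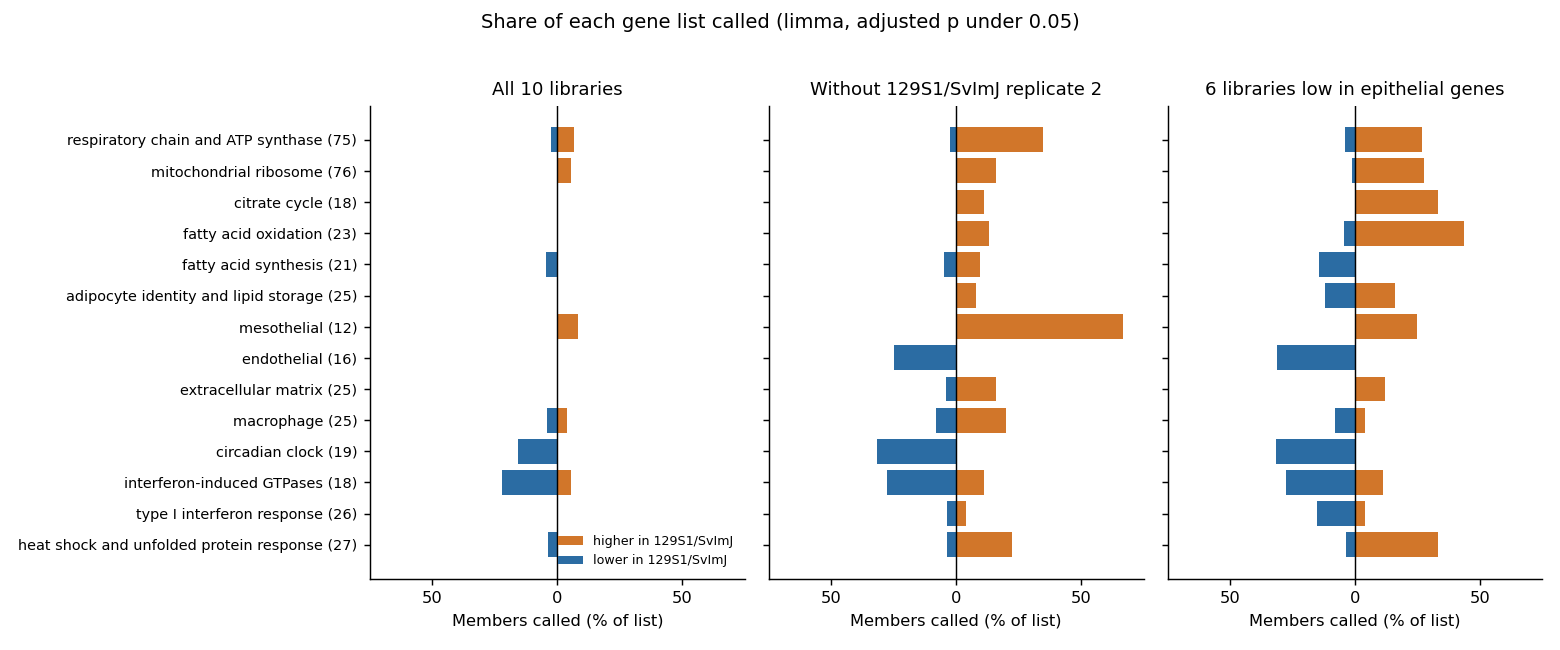
Percent of the members of 14 gene lists called higher (orange) or lower (blue) in 129S1/SvImJ by limma, with all 10 libraries, without 129S1/SvImJ replicate 2 and in the 6 libraries low in epithelial genes (list sizes in parentheses). Respiratory chain genes go from 5 higher with all libraries to 26 without replicate 2, and endothelial genes from 0 lower to 4.

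The same strains were also compared in eWAT on the low fat control diet and after 12 weeks of low fat diet, in libraries that the chow comparison does not share. Each table was normalized on its own, so the comparisons are set side by side without a test across them. limma called 2966 genes on the control diet, 1663 higher (7.27%) and 1303 lower (5.7%), and 4973 after 12 weeks, 2647 higher (11.6%) and 2326 lower (10.2%). Of the 1142 chow genes, 586 were called in the same direction on the control diet (51.3% of the chow genes and 19.8% of the control diet genes) and 1 in the opposite direction. After 12 weeks 456 were called in the same direction (39.9% and 9.17%) and 42 in the opposite one. 287 chow genes were called in the same direction on both, 130 higher and 157 lower. From the fit without replicate 2, 527 were. Of the genes called in that fit, 3 were called in the opposite direction on the control diet and 94 after 12 weeks.

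Genes with the largest chow differences had differences of like size elsewhere: Hal was 5.31 ± 0.51 and 6.42 ± 0.24 higher, Gbp1 4.73 ± 0.31 and 4.66 ± 0.36, Trim12a -4.82 ± 0.15 and -5.31 ± 0.15, and Pttg1 -3.83 ± 0.32 and -4.22 ± 0.24 on the control diet and after 12 weeks. Each of these was called in both (largest limma adjusted p = 0.00274). Cyp2f2 differed by -3.39 on chow and -2.93 ± 0.44 after 12 weeks but by 0.30 ± 0.93 on the control diet (adjusted p = 0.920). Fasn was lower on chow and after 12 weeks (-1.99 ± 0.34, adjusted p = 0.00626) and 1.32 ± 0.54 on the control diet, where it was not called (adjusted p = 0.180). Atp9a was higher on chow (0.92) and the control diet (0.36 ± 0.07) and was -0.07 ± 0.11 after 12 weeks. Thbs1, called higher on chow without replicate 2, was called lower on the control diet (-1.42 ± 0.27, limma adjusted p = 0.0196). After 12 weeks it was 0.99 ± 0.36 and not called (adjusted p = 0.0987). Thbs2 was -0.03 ± 0.40 on the control diet and 2.06 ± 0.27 after 12 weeks.

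The lists are read against the shares of all genes called, 7.27% higher and 5.7% lower on the control diet and 11.6% and 10.2% after 12 weeks. Respiratory chain genes were called 42 higher and 1 lower of 75 on the control diet. After 12 weeks 6 were higher and 7 lower, near the shares of all genes, and Ndufa11 differed by -0.01 ± 0.23. Endothelial genes were called lower on both other diets, 9 of 16 on the control diet and 14 of 16 after 12 weeks, with none higher. Of 19 clock genes 2 were higher and 1 lower on the control diet, and 4 each way after 12 weeks, with Per3 at -0.49 ± 0.20 (adjusted p = 0.179) and -1.09 ± 0.12. Type I interferon genes were called 2 higher and 12 lower of 26 on the control diet and 1 higher and 18 lower after 12 weeks, against none on chow with all libraries. None of 12 mesothelial genes was called on the control diet, and 2 were higher and 5 lower after 12 weeks. Of 21 fatty acid synthesis genes, 6 were called higher and none lower on the control diet. After 12 weeks none was higher and 12 were lower. Of the genes called in opposite directions on chow and after 12 weeks, Klf12, a transcription factor (-0.92 and 0.61), Rpl7a, a ribosomal protein with close copies (0.91 and -0.63, not called on chow in the 6 libraries), and Anp32b, a histone chaperone (-0.86 and 0.89), differed most on chow.

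**Figure D4:**
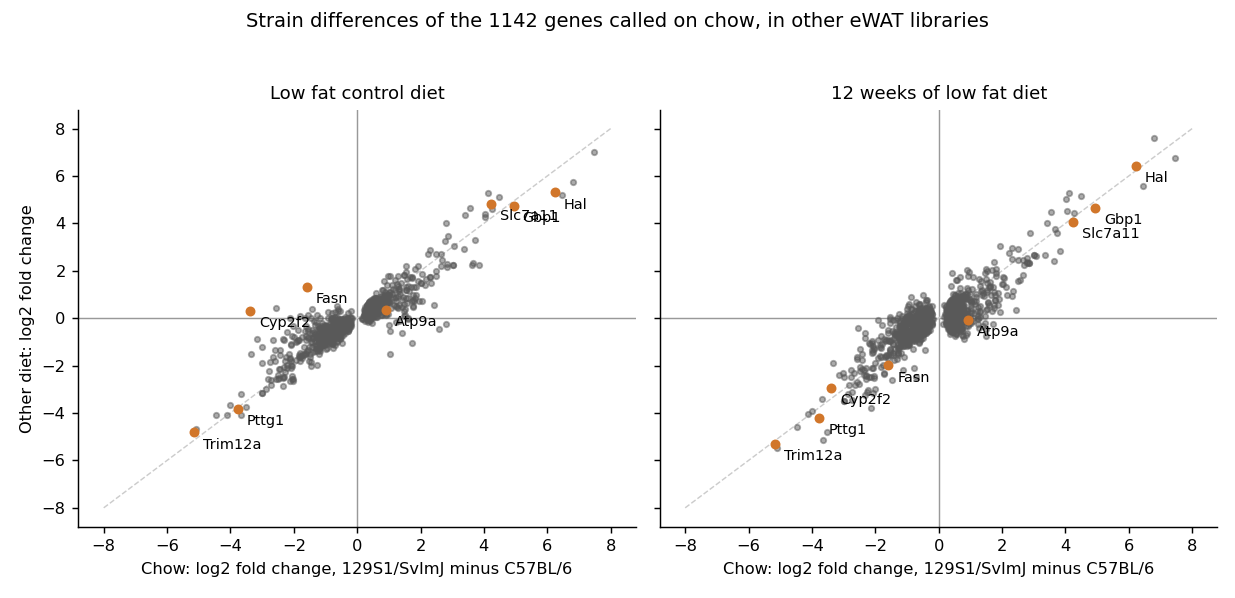
Log2 fold change of 129S1/SvImJ minus C57BL/6 for each of the 1142 genes called on chow (x axis) against the same quantity on the low fat control diet (left) and after 12 weeks of low fat diet (right), with the dashed line marking equality. Hal lies near the line in both, while Cyp2f2 and Fasn lie above 0 in the left panel (0.30 and 1.32).

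Some called genes lie next to each other. In the gene order of RefSeq, 4 runs of 3 or more consecutive measured genes were called in the same direction with all libraries, 20 without replicate 2 and 23 in the 6. The shares of all genes called in these fits were 4.99%, 11.2% and 10.8%. How many runs such shares give by themselves was not tested. With all libraries the runs were Mettl7a3, AB099516 and Mettl7a2, then Chmp4b, Raly and Eif2s2, then Hdhd3, Alad and Pole3, all higher, and Trim34a, Trim12a and LOC622070, lower. Alad makes porphobilinogen in haem synthesis and Chmp4b is an ESCRT-III protein. The longest run, 7 Ugt1a genes, was called higher without replicate 2 and in the 6 libraries, and since these transcripts share exons their values are not separate measurements.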

How the data were processed

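RNA from whole eWAT was sequenced as TruSeq libraries on an Illumina Genome Analyzer, per the labels' protocols. Per the submitters' processing notes HOMER was used with mouse build mm9. The sources used here do not name the aligner, the counting options or the normalization. The deposited table gives per transcript a whole-number score for each library, already normalized by the authors, with highest values and totals that libraries share, so it holds no counts and no counting interval can be given. It also holds the authors' deposited log2 fold change (C57BL/6 over 129S1/SvImJ) and p-value per transcript, with no statement of its test or adjustment in the sources used here. In the authors' deposited table Hal had a log2 fold change of -6.74 and Fasn of 1.30, the same direction as found here.

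Each column was assigned through the library number in its name and in the sample's label. For each of 22869 gene symbols the transcript with the highest total of 28644 was kept. limma 3.58.1 (R 4.3.3) was fitted to log2(value + 1), with trend and robust settings, 1 mean per strain, two-sided tests and Benjamini-Hochberg adjustment over all genes. The scripts were tested on simulated data. The low fat diet tables were fitted the same way, each alone. Lists are described by counts of called members and medians, with no set test. Of the members of 30 lists, 724 were matched, some through RefSeq synonyms, and 6 were not. The genes named in the text are mainly the 10 largest called differences in each direction with no overlap and a mean of at least 20, the 6 most abundant in each direction, up to 4 members per list, and fixed genes (Pparg, Adipoq, Lep, Fabp4, Cd36, Ucp1, Nnt, Hal, Lcn5, Crisp1), and further list members were named after their values were seen, to show a list's range. The members and lists were chosen with earlier results of these data known. Deviations of same-numbered libraries from their strain means correlated at -0.25, 0.43, 0.47, 0.51 and -0.51 for replicates 1 to 5. The signs were mixed, and 4 of the 10 libraries held transcripts of other tissues, so this cannot decide whether libraries were paired. No pairing was used. Promoter windows came from RefSeq (GRCm38.p6), and 22713 genes were placed in its order. Results for a few genes are not reported here.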

Additional observations from a re-analysis of the deposited data

Results flagged for a closer look

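Among the genes named, 212 groups of 5 libraries were checked for 1 value far from the other 4, and 28 had one. Chance gives about 1 in 20, but the named genes were partly chosen by their calls without 129S1/SvImJ replicate 2. Of 106 named genes, 43 gained a call when it was left out, so the count of 28 cannot be set against that rate. Of the 28 values, 18 were those of 129S1/SvImJ replicate 2, the library with epididymal transcripts. It was the highest of its strain for Lcn5 (58238), Pdia4 (4407), Srrm2 (3873), Son (3469), Slc7a11 (1498), Nnt (725), Sdf2l1 (419), Prdm16 (167) and Unc5a (36). It was the lowest for Fabp4 (7741), Hspg2 (1964), Lep (1195), Sod2 (585), Pdgfrb (173), C1qa (126), Xaf1 (40), Lyz1 (37) and Iigp1 (20).

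In 129S1/SvImJ replicate 1, Laptm4a was the highest of its strain (2678), and AB099516 (45) and Mettl7a2 (46) were the lowest. Trim12a was highest in 129S1/SvImJ replicate 3, at 6. In C57BL/6, Cd36 was highest in replicate 3 (28424), Mrpl32 in replicate 4 (89) and Mcm3 in replicate 5 (94), Hspe1 was lowest in replicate 5 (77), and Cd8b1 and St6galnac1 were highest in replicate 1, each at 2 and close to the floor.

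For 2 genes the strains were apart on chow and apart in the opposite direction after 12 weeks of low fat diet, and the difference between the diets was not tested. Mrpl54 was higher in 129S1/SvImJ by 0.75 on chow and differed by -0.56 after 12 weeks. Ebp, a sterol isomerase, was higher by 0.45 on chow and differed by -0.46 after 12 weeks.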

How the results depend on the processing

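The number of called genes moved with the libraries in the fit, and more with library weights or a replicate block. Against 1142 genes (545 higher, 597 lower, 287 of them called in the same direction on both other diets), leaving out 1 library at a time gave 652 to 2562 genes, 290 to 1416 higher, 339 to 1146 lower and 195 to 527 on all diets. The upper ends came without 129S1/SvImJ replicate 2 and the lower ends without C57BL/6 replicate 1 or 129S1/SvImJ replicate 3. With 129S1/SvImJ replicates 1 and 2 both left out the counts were 2597, 1535, 1062 and 518, in the same order. The 6 libraries low in epithelial genes gave 2470, 1352, 1118 and 526, and leaving out C57BL/6 replicates 2 and 5 and 129S1/SvImJ replicate 2 gave 1840, 898, 942 and 439, both chosen after seeing the data. Estimated library weights, in which replicate 2 had a weight of 0.0851, gave 3693, 2114, 1579 and 662. The fit with a replicate block gave 253, 120, 133 and 96. Whether replicate numbers pair the samples was not settled: only replicates 2 and 4 of C57BL/6 correlated best with their own number. A pseudocount of 5, a mean of at least 20, summed transcript rows, limma without trend and robust settings and a median shift of each library kept the counts within 1.5 times. Of 106 named genes 56 were called with all libraries, and 38 of these whichever single library was left out. Fabp4 was the only named gene to turn sign with a call, from -0.10 (-0.26 to 0.46 over the fits that leave out 1 library) to 0.46 without replicate 2, 0.56 without replicates 1 and 2 and 0.62 in the 6 libraries. The depth behind the values is unknown, so it could not be weighed for genes near the floor.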
